A study of Homo sapiens with 9 samples.

Results

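Transcripts of 10 genes of the Notch pathway were followed in A2780 cells treated with DIG-MSK: the transcriptional repressors HES1, HES2, HES4, HEY1 and HEY2, the receptors NOTCH1, NOTCH2 and NOTCH3, and the ligands JAG1 and JAG2. Members were the genes whose RefSeq transcript was the target of a gene probe on the array, which gave 12 probes for the 10 genes, of 42405 gene probes for 35010 genes in all. HES2 was picked because it was higher at 8 nM, so its values are given as a description and without a test. The other 9 genes were taken for their place in the pathway, but with earlier results of these data known. 9 of the 10 genes were above background and entered the comparison of 21832 genes, and HEY2 did not. Of these 21832, 13998 carried a gene symbol. Here and in the 35010, a target without a symbol counts as a gene of its own. Shares and ranks over all genes below include such targets.

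A2780 cells are a long-established ovarian carcinoma line of human origin. DIG-MSK is an analogue of mithramycin A, an antibiotic that sits in the DNA minor groove at C/G-rich stretches. Untreated A2780 cultures were compared with cultures of the same line kept for 24 h in 8 nM DIG-MSK or in 80 nM DIG-MSK, with 3 cultures and 3 arrays per group and 9 arrays in all. The labels name no genetic change and no further agent in any group, and all groups derive from 1 cell line. The study asked which genes DIG-MSK modulates at these 2 concentrations.

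Notch is a receptor at the cell surface that is activated by a ligand, such as a Jagged protein, on a neighbouring cell. Ligand binding exposes the receptor to proteases, and its released intracellular domain enters the nucleus, where it joins the DNA-binding protein RBPJ and turns on target genes. The best known targets encode HES and HEY proteins, basic helix-loop-helix repressors that silence differentiation genes and, in several tissues, their own promoters. Notch receptors and JAG1 are often studied in ovarian carcinoma.

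Slide 1 carried the untreated and 8 nM arrays and slide 2, scanned separately, carried those of 80 nM, so any difference seen at 80 nM cannot be told apart from one between the slides. Arrays had 75th percentiles of processed intensity from 831.7 to 1170, and arrays of one group correlated between 0.9891 and 0.9957 across genes. Of 9 markers of ovarian carcinoma or epithelium, 5 (EPCAM, KRT7, KRT8, KRT18 and KRT19) were above background, while MUC16, WT1 and CDH1 were so on no array. PAX8 was so on only 1 array of each group. Of 7 markers of blood, endothelial and stromal cells, 4 (PTPRC, CD14, CDH5 and DCN) had a probe above background. PECAM1 was above it on no array, and CD3E and LUM were not on all 3 arrays of any group. In these bulk preparations, fewer cells expressing a gene and less RNA per cell cannot be told apart.

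Since DIG-MSK and its parent bind C/G-rich DNA, and since RBPJ brings Notch to HES and HEY promoters, the 250 bases before the transcription start are shown for the genes whose transcripts the results turn on. The sequences are those of RefSeq on GRCh38.p14, in which 9 of the 10 genes were matched; HEY1 was not. Each is printed 5′ to 3′ on the strand of the gene. Capitals mark the GC box GGGCGG, the core of an Sp1 site, and TGGGAA, the core of an RBPJ site, on either strand. HES2 (chr1:6419920-6420169, minus strand), HES1 (chr3:194135898-194136147, plus strand), HES4 (chr1:1000098-1000347, minus strand), JAG1 (chr20:10674000-10674249, minus strand) and JAG2 (chr14:105168777-105169026, minus strand) read as follows.
HES2: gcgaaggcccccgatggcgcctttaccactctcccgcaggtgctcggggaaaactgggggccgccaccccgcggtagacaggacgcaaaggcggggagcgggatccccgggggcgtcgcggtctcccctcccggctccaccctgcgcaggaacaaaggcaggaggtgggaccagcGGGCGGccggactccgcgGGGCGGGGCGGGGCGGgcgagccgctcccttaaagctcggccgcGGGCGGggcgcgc
HES1: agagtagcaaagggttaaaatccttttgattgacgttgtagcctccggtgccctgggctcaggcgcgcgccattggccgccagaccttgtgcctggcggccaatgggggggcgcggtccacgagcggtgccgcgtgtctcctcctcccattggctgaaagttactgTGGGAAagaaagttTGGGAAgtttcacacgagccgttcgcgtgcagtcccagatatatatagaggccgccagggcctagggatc
HES4: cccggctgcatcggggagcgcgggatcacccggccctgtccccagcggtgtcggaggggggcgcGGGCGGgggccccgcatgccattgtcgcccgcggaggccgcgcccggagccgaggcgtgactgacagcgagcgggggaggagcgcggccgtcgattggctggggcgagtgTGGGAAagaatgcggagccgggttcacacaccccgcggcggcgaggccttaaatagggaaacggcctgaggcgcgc
JAG1: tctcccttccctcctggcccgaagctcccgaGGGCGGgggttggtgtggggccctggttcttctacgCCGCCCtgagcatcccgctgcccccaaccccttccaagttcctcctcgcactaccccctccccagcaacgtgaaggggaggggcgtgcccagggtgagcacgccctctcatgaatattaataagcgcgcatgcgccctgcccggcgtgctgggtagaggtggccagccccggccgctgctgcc
JAG2: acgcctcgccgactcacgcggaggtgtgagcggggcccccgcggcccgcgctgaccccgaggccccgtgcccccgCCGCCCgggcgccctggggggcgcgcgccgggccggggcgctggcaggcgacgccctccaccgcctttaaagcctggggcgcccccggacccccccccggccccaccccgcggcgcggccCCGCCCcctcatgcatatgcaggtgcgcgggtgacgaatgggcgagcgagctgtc

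The HES2 window held 5 copies of GGGCGG, at 75, 57, 52, 47 and 13 bases before the start, and the 3 in the middle overlap, each sharing 1 base with the next. It held no TGGGAA. HES1 showed the reverse, with 2 copies of TGGGAA and 0 of GGGCGG. In HES4 there was 1 of each, and in JAG1 and JAG2 there were 2 copies of GGGCGG and 0 of TGGGAA. Of all 35116 RefSeq windows of this length, from 27305 genes, 42.6% held GGGCGG, 4.15% held at least 5 copies, 20.8% held TGGGAA and 2.9% held at least 2. Of the 15974 windows of genes tested here, 60.8% held GGGCGG, 6.63% held at least 5 copies, 19.7% held TGGGAA and 2.71% held at least 2.

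Among the members that are not printed, the NOTCH3 window held 5 copies of GGGCGG, the NOTCH1 window 4, the HEY2 window 3 and the NOTCH2 window 1. TGGGAA stood once in the HEY2 window and in none of the receptor windows. The longer word GTGGGAA, which contains TGGGAA, was in HES1, HES4 and HEY2, 1 copy each, and in 5.43% of all windows. The E box CACGTG, a word bound by many basic helix-loop-helix proteins, was in none of the 9 windows and in 6.34% of all. GC content lay between 59.2% in HES1 and 81.6% in JAG2, with a median of 76% over the 9 windows, against 58% over all windows and 64% over those of genes tested. A match to letters is a description and not a binding site.

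**Figure D1:**
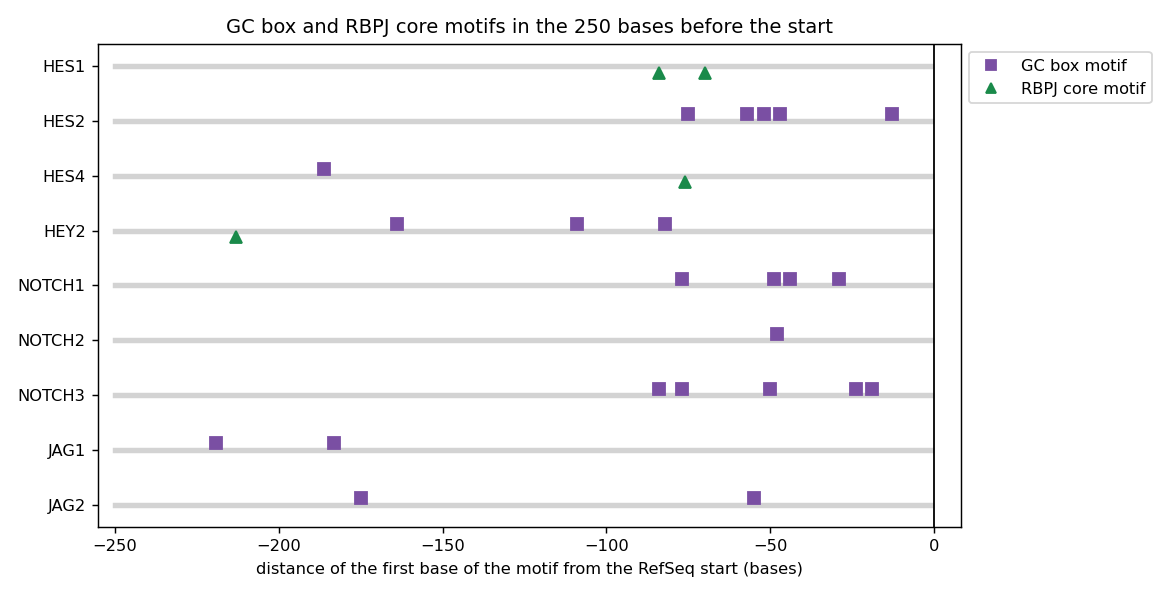
Positions of GGGCGG (squares, GC box) and TGGGAA (triangles, RBPJ core) in the 250 bases before the RefSeq start of 9 genes, on either strand, with the distance in bases of the first base of each motif from the start on the horizontal axis. HES2 and NOTCH3 held 5 squares each and HES1 held 2 triangles and no square.

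Levels below are log2 processed intensities from which each array's own 75th percentile was subtracted, so that 0 stands for this percentile and a negative level for a dimmer probe. Levels of different probes were not tested against each other. A gene was called higher at 1.5-fold or more, or lower at 0.67-fold or less, with an unadjusted limma p under 0.05, and adjusted p-values are limma's with Benjamini-Hochberg adjustment over the 21832 genes. The 3 comparisons share arrays, so their values are given side by side.

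HES2 (NM_019089) encodes a repressor of the HES family. Its level was -4.84, -4.82 and -4.87 on the untreated arrays, -2.24, -2.12 and -2.10 on the 8 nM arrays and -3.77, -3.65 and -3.66 on the 80 nM arrays. The 3 groups did not overlap, with the 8 nM arrays highest, the 80 nM arrays between and the untreated arrays lowest, and the spread within a group was at most 0.08 (SD, n = 3). The difference was 2.69 (6.44-fold) at 8 nM and 1.15 (2.22-fold) at 80 nM against untreated, and the level at 80 nM was 2.91-fold lower than at 8 nM. Ordered by the estimated change, HES2 stood 6 from the top of 21832 genes at 8 nM and 1378 from the top at 80 nM. Because HES2 was picked for its rise at 8 nM, these values carry no test.

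The probe of HES2 was dim without drug. Its processed intensity was 29.1, 38.9 and 34.9 on the untreated arrays, 241, 192 and 273 at 8 nM, and 72.6, 71.0 and 72.8 at 80 nM. All 9 arrays measured it well above background, and its untreated level stood at the 12.6 percentile of the genes tested. The size of the difference depended on how the background was treated: with normexp correction of the raw signals it was 1.64 at 8 nM and 0.59 at 80 nM, and in the authors' own log2 values it was 2.00 and 0.74. The order of the groups was the same in both.

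The genes most like HES2 over the 9 arrays were found by the root mean square difference of levels, after the untreated mean of each gene was subtracted, among 12697 named genes that all 9 arrays measured well above background. The nearest was MYBPHL, with a distance of 0.12 on the log2 scale and differences of 2.56 at 8 nM and 1.03 at 80 nM. DNAI3, an axonemal dynein subunit, followed at 0.31, with 2.25 and 1.42. PLXNB3, a plexin receptor for semaphorins, was at 0.38, with 2.50 and 0.58. GRHL3, an epithelial transcription factor, was at 0.43, with 2.35 and 0.54, and SAA1, an acute phase protein, was also at 0.43, with 2.66 and 1.84. All 5 were highest at 8 nM, which the choice by likeness fixed, and none of the 5 is a Notch gene of the lists used here.

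**Figure D2:**
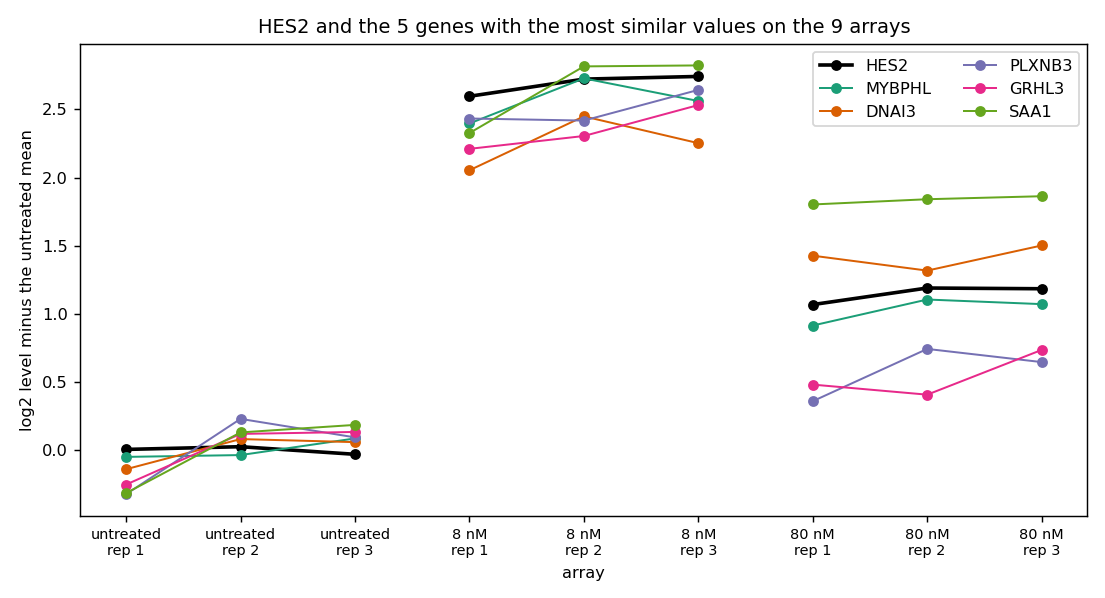
Log2 level of HES2 (black) and of the 5 genes with the most similar values, each minus its own mean on the 3 untreated arrays, on the 9 arrays in order of group and replicate. The HES2 points lie near 0 without drug, above 2.5 at 8 nM and between 1.0 and 1.5 at 80 nM, and the 5 other genes were selected for this shape.

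Apart from HES2, no member was called at 8 nM DIG-MSK (0 higher and 0 lower of 8 tested), where 7.09% of all genes were called, 4.25% higher and 2.84% lower. Without the limit on fold, 4 of the 8 had an unadjusted limma p under 0.05, namely HES4, HEY1, NOTCH3 and JAG1, beside 30.8% of all genes, and after adjustment none did. At 80 nM, 3 of the 8 were higher (HES1, HEY1 and JAG1) and 1 was lower (JAG2), which is 50% of those tested, beside 35.1% of all genes called, 18.8% higher and 16.3% lower. Against 8 nM, the 80 nM arrays gave 3 higher (HES4, HEY1 and JAG1) and 1 lower (JAG2) of 8, beside 33.6% of all genes, 19.5% higher and 14.2% lower. With adjusted p-values the member calls were the same in number, beside 5.13%, 34.3% and 32.8% of all genes in the 3 comparisons. The median change of the 8 genes was 0.12 at 8 nM and 0.35 at 80 nM, against -0.06 and 0.08 over all genes tested.

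**Figure D3:**
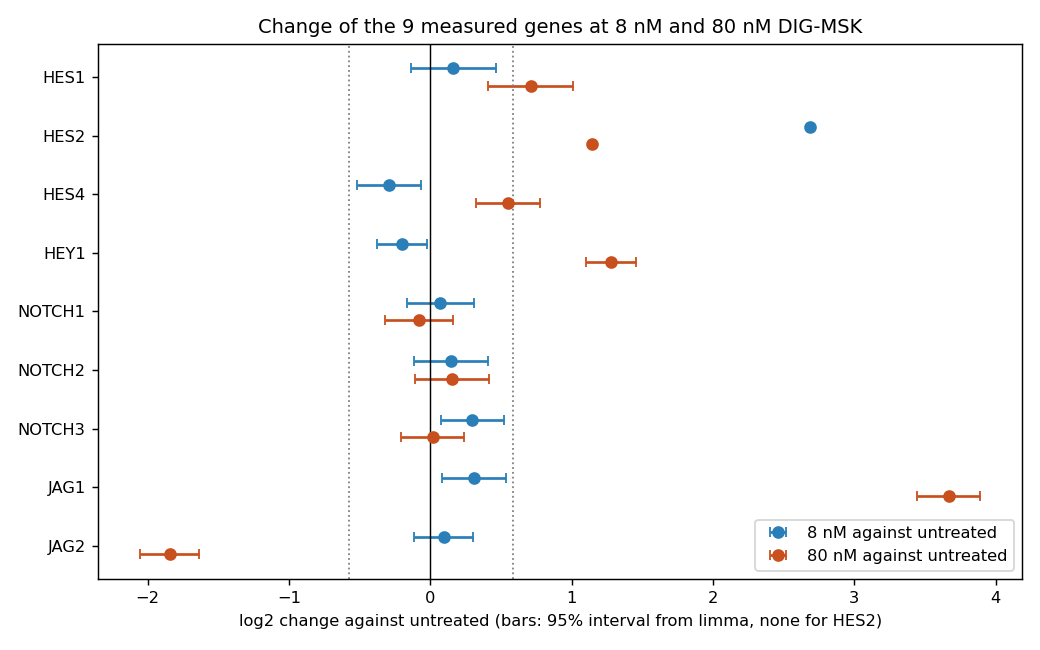
Log2 change of the 9 genes above background at 8 nM (blue) and 80 nM (red) against untreated, with 95% intervals from limma over 9 arrays and dotted lines at 1.5-fold and 0.67-fold. HES2 has no interval because it was picked for its value at 8 nM; JAG1 at 3.67 and JAG2 at -1.84 lie farthest from 0 at 80 nM.

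JAG1 (NM_000214) encodes the ligand Jagged1, a transmembrane protein that activates Notch receptors on neighbouring cells. Its level was -2.62, -2.35 and -2.66 without drug, -2.27, -2.16 and -2.27 at 8 nM, and 1.19, 1.03 and 1.15 at 80 nM. All 80 nM arrays stood more than 3 log2 units above every other array, while the 8 nM arrays stood only just above the untreated ones. JAG1 rose 12.7-fold at 80 nM against untreated (log2 change 3.67, SE 0.10, limma adjusted p = 4.97e-08) and 10.3-fold against 8 nM (3.36, adjusted p = 7.29e-08). Its change at 80 nM stood 30 from the top of 21832 genes. At 8 nM the change was 0.31 (SE 0.10, adjusted p = 0.0748), and without untreated replicate 2 it was 0.41 with an adjusted p of 0.0326, still under the limit on fold.

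JAG2 (NM_002226), the second Jagged ligand, went the other way. Its level was -0.71, -0.68 and -0.43 without drug, -0.60, -0.45 and -0.48 at 8 nM, and -2.45, -2.41 and -2.48 at 80 nM. The untreated and 8 nM arrays overlapped, and the 80 nM arrays lay apart below them. JAG2 fell 3.59-fold at 80 nM against untreated (log2 change -1.84, SE 0.09, adjusted p = 1.21e-06) and 3.83-fold against 8 nM (-1.94, adjusted p = 9.31e-07), while at 8 nM it differed from untreated by 0.09 (adjusted p = 0.51). The processed intensity of the JAG2 probe was 510, 682 and 760 without drug and 181, 167 and 164 at 80 nM. That of the JAG1 probe was 135, 216 and 162 without drug and 2270, 1820 and 2040 at 80 nM.

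HEY1 (NM_001040708) encodes a repressor of the HEY family and is a direct Notch target in many cells. Its level was 0.54, 0.46 and 0.39 without drug, 0.33, 0.31 and 0.14 at 8 nM, and 1.72, 1.76 and 1.74 at 80 nM. The 80 nM arrays were all above the others and nearly equal among themselves, and the 8 nM arrays were all slightly below the untreated ones. HEY1 rose 2.43-fold at 80 nM against untreated (log2 change 1.28, SE 0.08, adjusted p = 3.69e-06) and 2.79-fold against 8 nM (1.48, adjusted p = 1.65e-06), and at 8 nM the change was -0.20 (adjusted p = 0.121). Over all alternative settings its change at 80 nM against untreated lay between 1.00 and 1.32.

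HES1 (NM_005524) encodes the most studied Notch-induced repressor. Its level was -4.23, -4.52 and -4.23 without drug, -4.00, -4.40 and -4.09 at 8 nM, and -3.63, -3.48 and -3.73 at 80 nM. The untreated and 8 nM arrays overlapped and all 80 nM arrays stood above both. Between arrays of the same number, HES1 was 0.23, 0.12 and 0.14 higher at 8 nM, and limma gave an adjusted p of 0.44 when the replicate number was a block. HES1 rose 1.64-fold at 80 nM (log2 change 0.71, SE 0.13, adjusted p = 0.00195), and its change was 0.16 at 8 nM (adjusted p = 0.43) and 0.55 between 80 nM and 8 nM (1.46-fold, adjusted p = 0.00756, under the limit on fold). The probe was dim, with a processed intensity from 39.5 to 80.0 over the 9 arrays. The call at 80 nM was lost with the background model of normexp (0.43), in the authors' log2 values (0.52), both under the limit on fold, and with scaling to the spike-in probes (0.43, adjusted p = 0.228).

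HES4 (NM_021170), a human HES gene close to HES1 in sequence, had a bright probe. Its level was 4.82, 4.67 and 4.62 without drug, 4.50, 4.51 and 4.22 at 8 nM, and 5.20, 5.24 and 5.32 at 80 nM. The 3 groups did not overlap, with the 8 nM arrays lowest and the 80 nM arrays highest. HES4 rose 1.79-fold from 8 nM to 80 nM (log2 change 0.84, SE 0.10, adjusted p = 0.000164). Against untreated its change was -0.29 at 8 nM (adjusted p = 0.0858) and 0.55 at 80 nM (1.46-fold, adjusted p = 0.00153), just under the limit on fold, and it passed that limit without untreated replicate 1 (0.61), with normexp (0.66) and in the authors' log2 values (0.65). With scaling to the spike-in probes both were smaller, 0.27 at 80 nM against untreated (adjusted p = 0.347) and 0.49 against 8 nM (adjusted p = 0.094).

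HEY2 (NM_012259), the second HEY repressor, was not well above background on any of the 9 arrays. Its level lay between -8.20 and -6.75, while the dimmest probe that an array measured well above background stood between -6.21 and -5.68. No fold is given for it.

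**Figure D4:**
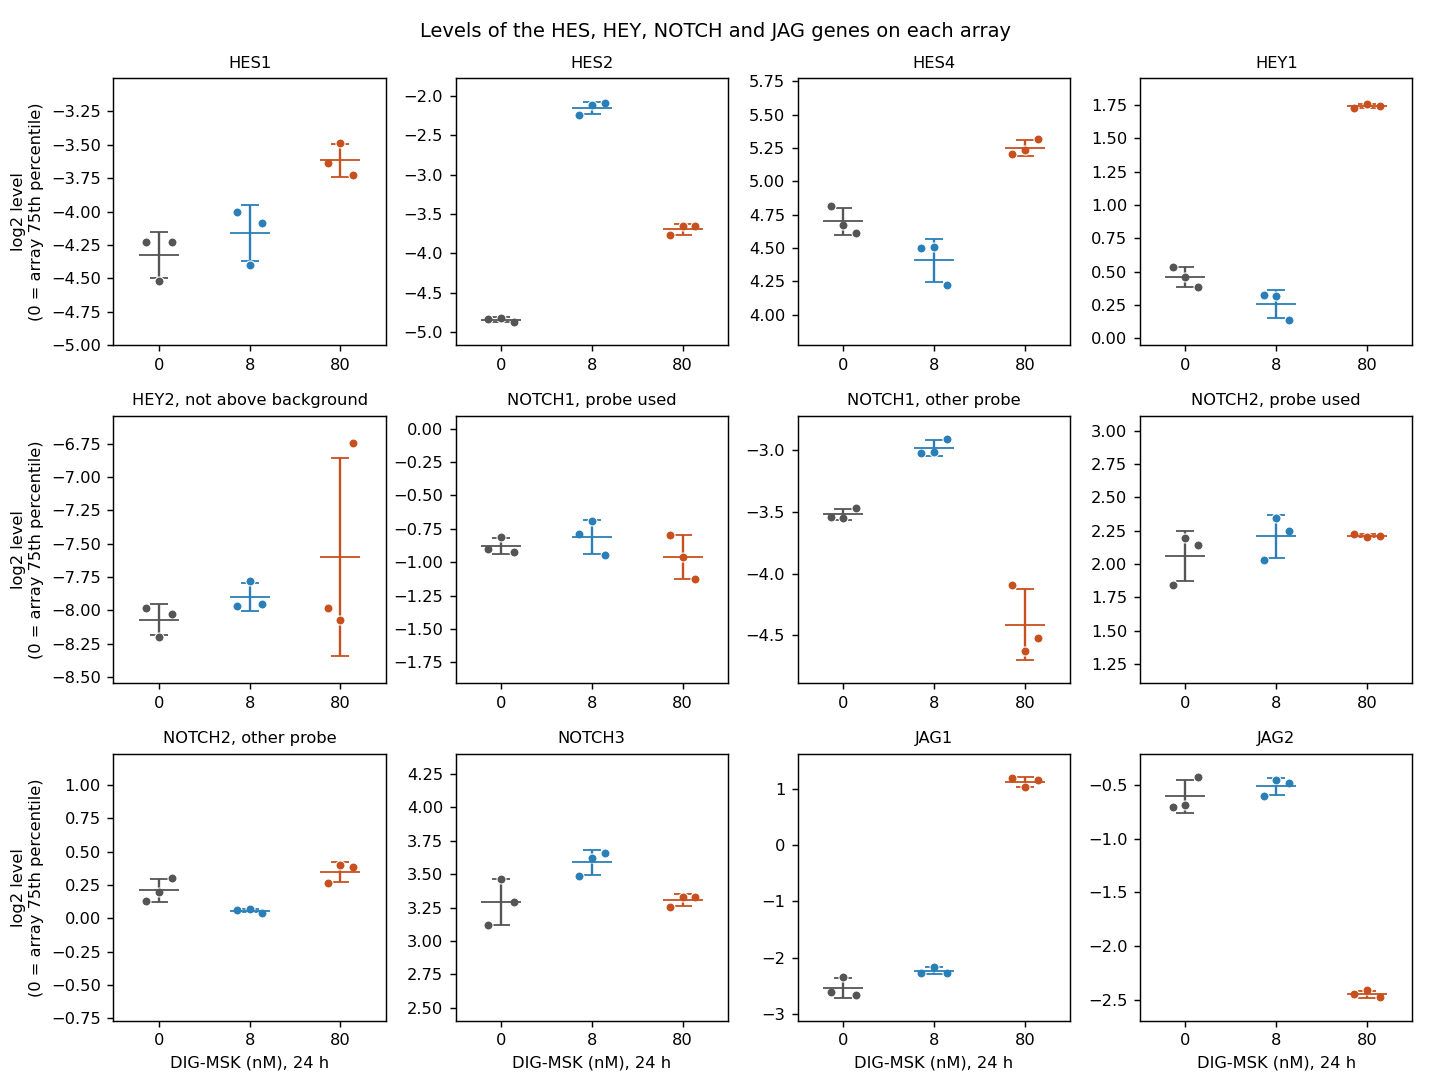
Log2 level of each of the 12 probes on the 9 arrays (points), by DIG-MSK concentration in nM, with the mean and SD of 3 arrays as lines; each panel has its own vertical axis, spanning at least 2 log2 units. HES2 is highest at 8 nM, JAG1 and HEY1 are highest at 80 nM, JAG2 is lowest at 80 nM, and the 2 NOTCH1 probes differ in pattern.

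The 3 receptors gave no call by the probe that stood for each gene. NOTCH2 (NM_024408) had levels of 1.85, 2.20 and 2.14 without drug, 2.03, 2.35 and 2.25 at 8 nM, and 2.23, 2.20 and 2.21 at 80 nM. The treated arrays lay within or just beside the untreated range, and the change was 0.15 at both concentrations (95% interval -0.12 to 0.41 at 8 nM and -0.11 to 0.41 at 80 nM). Between arrays of the same number, NOTCH2 was 0.18, 0.15 and 0.10 higher at 8 nM than without drug, and with the replicate number as a block the limma adjusted p was 0.342. A second NOTCH2 probe, for the transcript NM_001200001, gave -0.15 at 8 nM (adjusted p = 0.198), and its value at 80 nM was 0.14 (adjusted p = 0.134). Between 80 nM and 8 nM it gave 0.29 (adjusted p = 0.00927, under the limit on fold).

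NOTCH3 (NM_000435) had levels of 3.12, 3.46 and 3.29 without drug, 3.48, 3.62 and 3.66 at 8 nM, and 3.26, 3.33 and 3.33 at 80 nM. The 8 nM arrays stood highest, narrowly, and the 80 nM arrays lay inside the untreated range. The change was 0.30 at 8 nM (SE 0.10, adjusted p = 0.0814), 0.02 at 80 nM (adjusted p = 0.899) and -0.28 between 80 nM and 8 nM (adjusted p = 0.0363), all under the limit on fold. Without untreated replicate 2 the change at 8 nM was 0.38 (adjusted p = 0.0499). The adjusted p of the last difference was above 0.05 in 9 of 20 alternatives, 6 of which left out 1 array.

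NOTCH1 (NM_017617) had 2 probes whose patterns differed. The brighter one, which stands for the gene, gave -0.90, -0.81 and -0.93 without drug, -0.79, -0.69 and -0.94 at 8 nM, and -0.80, -0.96 and -1.13 at 80 nM. Its 3 groups overlapped, with a change of 0.07 at 8 nM (adjusted p = 0.671) and one of -0.08 at 80 nM (adjusted p = 0.526). The dimmer probe gave -3.54, -3.55 and -3.47 without drug, -3.02, -3.01 and -2.91 at 8 nM, and -4.09, -4.63 and -4.52 at 80 nM. On this probe the groups did not overlap, and the 8 nM arrays were highest and the 80 nM arrays lowest. It was 0.54 higher at 8 nM (adjusted p = 0.0314, under the limit on fold), 0.89 lower at 80 nM against untreated (1.86-fold, adjusted p = 0.00057) and 1.43 lower against 8 nM (adjusted p = 4.68e-05). With the mean of both probes the change at 80 nM was -0.49 (adjusted p = 0.00396), so the direction and size for NOTCH1 rest on the probe. Adjusted p-values of a second probe are over all probes kept.

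Around the members, 70 other genes of the pathway are reported by role, of which 68 had a matched probe and 53 were above background. The counts below cover these genes and are not a complete count of the pathway. At 8 nM, 4 were higher, or 7.55% of the 53, beside 4.25% of all genes higher. At 80 nM, 11 were higher and 11 lower, or 41.5%, beside 35.1% of all genes. Scaling to the spike-in probes moved the median of all genes at 80 nM from 0.08 to -0.20. It gave 4 of the 53 higher and 14 lower, beside 2224 and 5727 of all 21832 genes. Between 80 nM and 8 nM, 7 were higher and 15 lower, or 41.5%, beside 33.6% of all genes. Their median change was 0.06 at 8 nM and 0.03 at 80 nM, against -0.06 and 0.08 over all genes tested. CIR1 and HELT were not analysed here.

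Among other ligands, DLL1 and DLL4 were not above background. DLK1 (NM_003836), a non-canonical ligand that lacks the domain by which Jagged and Delta proteins bind Notch, had levels of 1.14, 1.57 and 1.57 without drug, 1.63, 2.07 and 2.10 at 8 nM, and -4.44, -4.40 and -4.60 at 80 nM. It fell 60.0-fold at 80 nM (log2 change -5.91, adjusted p = 5.58e-08). Its second probe gave a smaller fall of 1.67 on the log2 scale (adjusted p = 2.73e-05). DLK2, its relative, fell 2.54-fold at 80 nM (adjusted p = 1.11e-06).

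In the machinery that cuts and modifies the receptors, 3 of 9 protease genes were higher at 80 nM and none was lower, beside 18.8% and 16.3% of all genes. NCSTN and APH1B, which encode subunits of γ-secretase, rose by 0.80 and 0.65 on the log2 scale, and FURIN, a protease that cuts the receptor precursor, rose by 0.72. Of 5 genes that add sugars to the receptors, RFNG, a fringe enzyme, was higher at 8 nM (0.59, adjusted p = 0.00257), beside 4.25% of all genes. None of the 5 was called at 80 nM, beside 35.1% of all genes. The 2 probes of LFNG, another fringe enzyme, gave 0.38 and -0.84 at 80 nM. Of 4 ubiquitin ligases that drive ligand endocytosis, MIB2 rose at 8 nM (0.64) and NEURL1 rose at 80 nM (0.98). Beside these, 4.25% and 18.8% of all genes were higher.

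In the nucleus, RBPJ, the DNA-binding partner of the Notch intracellular domain, fell 1.78-fold at 80 nM (log2 change -0.83, adjusted p = 0.000173). MAML3, a coactivator of the same complex, fell 2.90-fold (-1.54, adjusted p = 0.00086), and its other probes gave -1.85 and -1.73. KAT2B, a histone acetyltransferase, rose 2.76-fold (1.46, adjusted p = 3.43e-06). In all, 1 of 6 genes of the activation complex was higher and 2 were lower at 80 nM, beside 18.8% and 16.3% of all genes, and 0 of 6 were called at 8 nM, beside 7.09%.

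Of 9 corepressors reported, 4 were lower and 1 was higher at 80 nM, beside 16.3% and 18.8% of all genes. TLE3, a Groucho family corepressor that HES proteins recruit, fell 4.87-fold (log2 change -2.28, adjusted p = 4.98e-07). TLE1 fell 6.39-fold (-2.68, adjusted p = 1.7e-06) by the brighter probe, while its dimmer probe gave 0.63 (adjusted p = 0.181). TLE5 fell by 0.75, NCOR1 fell by 1.19 and HDAC1, a histone deacetylase, rose by 0.59. The 2 probes of SPEN, which joins RBPJ to corepressors, gave -0.03 and -2.68 at 80 nM, the latter with an adjusted p of 1.69e-06. TLE4 was higher at 80 nM on both its probes. The brighter gave 0.47 (adjusted p = 0.000942, under the limit on fold) and the dimmer 1.03 (adjusted p = 1.77e-05).

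Among 9 regulators of the signal, FBXW7, which marks the Notch intracellular domain for destruction, rose at 8 nM (log2 change 0.78, adjusted p = 0.00557) and at 80 nM (0.69, adjusted p = 0.00161). DTX4, a Deltex ubiquitin ligase, rose at 8 nM (1.30, SE 0.34, adjusted p = 0.0403). At 80 nM, NUMBL and DTX3 rose by 0.81 and 0.74 and DTX3L fell by 1.25. NRARP, a Notch target that feeds back on the pathway, had levels of 2.02, 2.09 and 2.12 without drug, 1.92, 2.11 and 2.00 at 8 nM, and 1.01, 1.01 and 1.05 at 80 nM. NRARP fell 2.08-fold at 80 nM (-1.05, adjusted p = 7.37e-06), at the concentration at which HEY1 and HES1 rose. In all, 2 of the 9 regulators were higher and 0 lower at 8 nM, beside 4.25% and 2.84% of all genes. At 80 nM 3 were higher and 2 lower, beside 18.8% and 16.3%.

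The other repressors of the HES and HEY type also split. BHLHE41 and BHLHE40, which respond to hypoxia and to the circadian clock as well, rose 3.56-fold (adjusted p = 1.48e-06) and 1.87-fold (adjusted p = 0.000264) at 80 nM. HES6 fell 1.85-fold (-0.88, adjusted p = 0.000134) by its brightest probe, but its other 3 probes gave -0.05, -0.31 and -0.14. HES3 and HES5 were not above background. Of 8 proneural factors, a class of genes that HES proteins repress, 1 (NEUROG3) was tested, with a change of 0.17 at 80 nM that was not called.

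**Figure D5:**
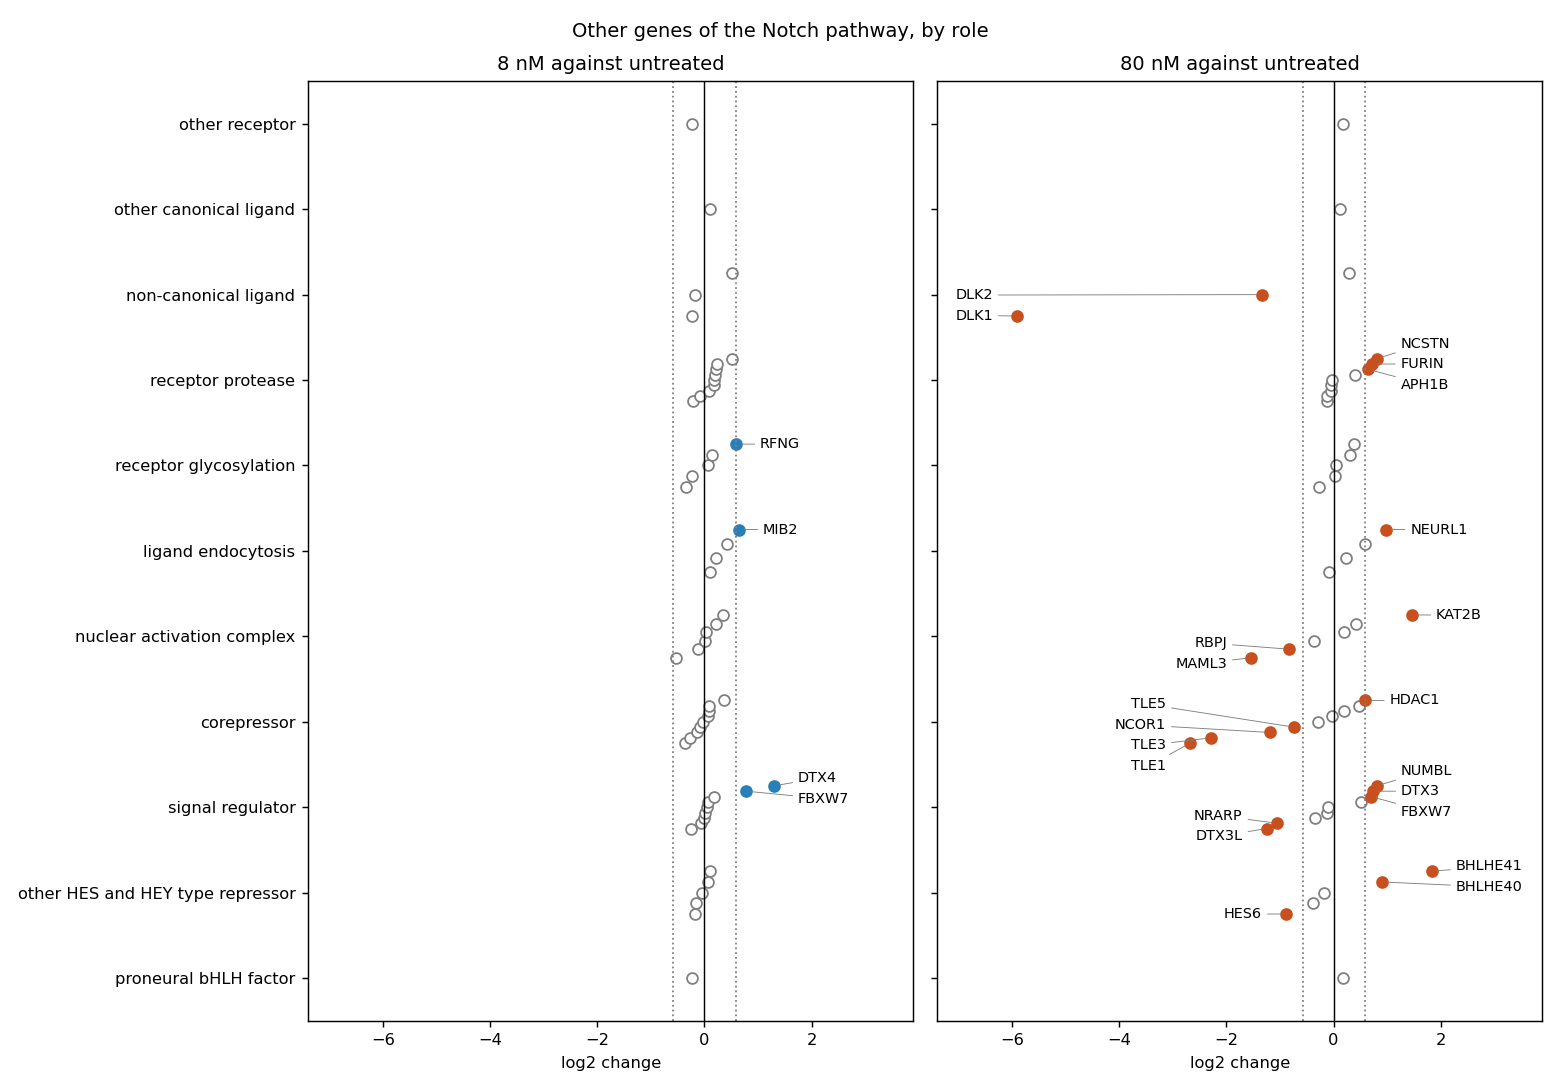
Log2 change of the 53 other pathway genes reported at 8 nM (left) and at 80 nM (right) against untreated, grouped by role, with filled and named points for genes past 1.5-fold or 0.67-fold (dotted lines) with an adjusted p under 0.05. At 8 nM 4 points are filled, and at 80 nM 22 are, 11 on each side of 0.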

How the data were processed

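The authors isolated RNA from 3 independent cultures per group, labeled it with a single dye and scanned 1 array per culture. The methods name the Low Input Quick Amp kit and the labels another kit. The deposited intensity of each spot is the background-corrected signal of Feature Extraction 10.7.3.1, not scaled between arrays. The authors also deposited log2 values per probe with almost equal quantiles on every array, used as an alternative only.

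Groups came from the titles of the samples. Outlier spots were dropped, spots of a probe were averaged, and each array's 75th percentile was subtracted from log2 intensity. A probe had to be well above background on the 3 arrays of some group (26457 were), and the brightest stood for its gene. RefSeq accessions marked 27245 probes, and 25715 of these took their symbol from the RefSeq gene table of GRCh38.p14. Groups were compared in R 4.3.3 with limma 3.58.1 on all 9 arrays, and calls followed the limits in the study's methods. The scripts were tested on simulated data. Depth does not apply to arrays, whose number limits the precision.

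The members and lists were chosen with earlier results of these data known. A result on 1 listed pathway gene is not reported here, and the gene is left out of the counts of other pathway genes. The text names every member, the other reported pathway genes past 1.5-fold in either direction with an adjusted p under 0.05, and the 5 genes most like HES2. Other genes, named for a contrast between probes or for lack of signal, were chosen after their values were seen. Same-numbered arrays of the untreated and 8 nM groups deviated together (correlations 0.114, 0.101 and 0.163), so these numbers were taken as pairs from the data. Differently numbered arrays of these 2 groups gave -0.124 to -0.00301. Same-numbered arrays with 80 nM did not deviate together (between -0.124 and 0.0155). Differently numbered arrays of 8 nM and 80 nM reached 0.118 and 0.125, so the pairing is uncertain. One alternative, the block on only the untreated and 8 nM arrays, was added after seeing the data. Alternatives were normexp on the median signal, quantile, median and spike-in scaling, the authors' log2 values, other filters, other probes, a fit of only the groups compared, the replicate block and each array left out in turn.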

Additional observations from a re-analysis of the deposited data

How the results depend on the processing

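The calls of JAG1, JAG2 and HEY1 at 80 nM held in every alternative run, with changes against untreated of 3.14 to 3.77, -2.12 to -1.47 and 1.00 to 1.32. The change of HES2, which carries no test, ranged from 1.64 to 2.76 at 8 nM and, at 80 nM, from 0.59 to 1.19. Scaling to the spike-in probes moved the median of all genes at 80 nM from 0.08 to -0.20, and the split of calls from 4104 higher and 3561 lower to 2224 and 5727; the changes of the members moved with it. Of the other pathway genes, 4 were then higher at 80 nM, in place of 11, and 7 with normexp or in the authors' log2 values. Over all genes, 2399 were higher with normexp and 2858 in the authors' log2 values, in place of 4104. The cause was not tested. The members lower at 80 nM than at 8 nM numbered 2, in place of 1, with spike-in scaling and with the mean of the probes of a gene.

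Changes near 0 turned sign. NOTCH2 between 80 nM and 8 nM was -0.065 with quantile normalization, -0.35 with spike-in scaling and -0.033 in the authors' log2 values, and between -0.084 and 0.074 with 1 array left out. At 8 nM NOTCH2 was -0.0023 with the mean of both probes and -0.15 by the other probe. With spike-in scaling NOTCH2 was -0.13 and NOTCH3 -0.26 at 80 nM. With 1 array left out, NOTCH3 at 80 nM lay between -0.070 and 0.10 and NOTCH1 between -0.16 and 0.0032. None of these passed the test.

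Leaving out 1 array gave 0 members called at 8 nM each time, 3 to 4 higher and 1 lower at 80 nM against untreated, and 3 to 4 higher and 1 lower against 8 nM. The share of all genes called is not given for these fits, so their counts have no background beside them. HES1 passed the limit on fold against 8 nM without 8 nM replicate 1 (0.63), without 8 nM replicate 3 (0.59) or without 80 nM replicate 3 (0.60). The other pathway genes numbered 3 to 6 higher and, of those reported, 0 to 1 lower at 8 nM, with the 1 lower and 6 higher both without 8 nM replicate 1, and 9 to 13 higher and 11 to 12 lower at 80 nM. With the replicate number as a block, 3 members were higher and 1 lower at 80 nM and JAG1 at 8 nM had an adjusted p of 0.116; the block changed no call of a member. The effect of 80 nM and the slide cannot be told apart under any setting.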
